A study of Mus musculus with 9 samples.

Results

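Adipocyte genes are transcripts that mature fat cells make in quantity, and ovaries lie embedded in gonadal fat. The 8 genes followed here were Adipoq, Fabp4, Plin1, Plin4, Cidec, Lep, Cfd and Retn. They were found by symbol among 56748 Ensembl genes, and all 8 were present in the table. FPKM counts sequenced fragments relative to the length of the transcript and to the size of the library. Genes were tested where 3 or more of the 9 libraries reached 1 FPKM, which 14431 genes did, 7 of the members among them but not Lep.

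The libraries were polyadenylated RNA from ovarian granulosa cells, the follicle cells that surround the oocyte, of female wild type C57BL/6 mice whose age the labels do not give. The Control group was untreated per the labels and vehicle-treated per the design text. CTX mice received cyclophosphamide, an alkylating drug, at 120 mg per kg as a model of premature ovarian failure. CTX_HCQ mice received the same injection and oral hydroxychloroquine, a drug that accumulates in lysosomes, daily at 40 mg per kg, begun 7 days ahead of cyclophosphamide and kept up for 4 weeks afterwards. Each group had 3 libraries. Whether a library is 1 mouse or a pool is not given in the labels, so p-values measure the spread between libraries, which may be technical in part.

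Adipocytes store triglyceride in a single large lipid droplet. Perilipins coat that droplet and control access of lipases, and CIDE proteins fuse small droplets into larger ones. Adipocytes also secrete hormones: adiponectin and leptin, which act on metabolism and appetite, and in mice resistin and the complement protease adipsin. The nuclear receptor PPAR gamma and the C/EBP factors switch on many of these genes during fat cell differentiation.

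Reads recovered from the FPKM values with exon lengths summed to 13919027 to 17768462 per library. These sums were 0.907 (CTX_HCQ 3) to 1.029 (CTX 1) times the library size behind the FPKM. Genes of granulosa cells were high in all libraries. Foxl2 stood between 67.8 and 103.8 FPKM, Amh between 172 and 540, and Fshr between 18.2 and 45.7. Oviduct and blood vessel genes were present as well. Ovgp1, an oviduct glycoprotein gene, stood at 339 FPKM in CTX 3, at 44.4 to 91.0 in CTX 1, CTX 2 and Control 1, and at 11.3 or less in the other 5 libraries. Transcripts of the mitochondrial genome took 28.9% of the summed FPKM in CTX 3 and 11.7% to 17.5% elsewhere.

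Promoter sequences are shown for Adipoq, Cidec, Cfd and Retn, the 4 members whose levels moved together over the libraries, and for Plin4, which did not move with them. Each line gives the 250 bases before an annotated start, from RefSeq on GRCm38.p6, an older build than the GRCm39 named for the files. Capitals mark CCAAT on either strand, where it reads ATTGG on the opposite one.
Adipoq, chr16:23146286-23146535, plus strand: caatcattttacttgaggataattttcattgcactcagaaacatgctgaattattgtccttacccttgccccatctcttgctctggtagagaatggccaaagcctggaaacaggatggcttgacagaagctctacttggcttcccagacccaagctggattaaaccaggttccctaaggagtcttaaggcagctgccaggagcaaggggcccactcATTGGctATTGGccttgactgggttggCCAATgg
Cidec, chr6:113435761-113436010, minus strand: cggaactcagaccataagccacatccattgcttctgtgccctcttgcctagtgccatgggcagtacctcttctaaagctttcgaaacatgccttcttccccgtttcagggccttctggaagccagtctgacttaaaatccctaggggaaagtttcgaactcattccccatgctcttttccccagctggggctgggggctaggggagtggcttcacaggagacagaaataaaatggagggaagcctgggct
Cfd, chr10:79890603-79890852, plus strand: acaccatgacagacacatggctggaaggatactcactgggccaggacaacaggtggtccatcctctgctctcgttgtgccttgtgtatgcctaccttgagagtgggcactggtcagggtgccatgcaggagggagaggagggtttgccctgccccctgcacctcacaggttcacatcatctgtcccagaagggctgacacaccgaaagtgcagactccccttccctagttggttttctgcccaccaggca
Retn, chr8:3655520-3655769, plus strand: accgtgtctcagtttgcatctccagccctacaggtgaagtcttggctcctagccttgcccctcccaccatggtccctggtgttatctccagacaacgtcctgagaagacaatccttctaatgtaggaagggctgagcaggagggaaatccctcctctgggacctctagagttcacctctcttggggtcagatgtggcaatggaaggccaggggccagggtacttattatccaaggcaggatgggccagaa
Plin4, chr17:56109783-56110032, minus strand: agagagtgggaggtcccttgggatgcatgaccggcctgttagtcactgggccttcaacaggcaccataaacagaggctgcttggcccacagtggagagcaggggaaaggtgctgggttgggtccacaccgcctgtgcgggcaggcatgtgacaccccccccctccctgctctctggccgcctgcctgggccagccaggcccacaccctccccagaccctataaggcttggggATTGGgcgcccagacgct

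Adipoq held CCAAT 3 times, starting 34, 27 and 7 bases before the start site, and Plin4 held it once, 18 bases before it. Windows of this length held CCAAT in 33.8% of 32851 promoters. Searched on both strands were also AGGTCA, the repeat unit bound by PPAR gamma with its partner RXR (14% of promoters), DR1, which is AGGTCA repeated after 1 base of any kind (0.0335%), the C/EBP core TTGCG (14.5%) and TATAAA (12.4%). None of these 4 was found in the 5 windows shown. Cidec had another annotated start, whose window (chr6:113434765-113435014) is not shown and held no match to any motif searched. Of the 8 members 7 had a window, and Lep was the only member with TTGCG, in 2 overlapping matches on opposite strands, 55 and 52 bases before its start. No motif was shared by Adipoq, Cidec, Cfd and Retn.

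Adipoq (ENSMUSG00000022878) encodes adiponectin, a hormone made almost only by fat cells. It stood at 6.57, 3.35 and 1.01 FPKM in Control 1 to 3. In CTX it stood at 1.81, 6.09 and 12.7, and in CTX_HCQ at 2.10, 6.01 and 4.53. The 3 groups overlapped. CTX 3 was the highest library and stood apart from the next, Control 1 at 6.57. Control 3 was the lowest, with CTX 1 next at 1.81. The end values rested on 23 reads in Control 3 (95% Poisson interval 0.640 to 1.52 FPKM) and 289 reads in CTX 3 (11.3 to 14.3 FPKM). This 12.6-fold span between libraries was thus wider than counting error. The interval of Control 3 overlapped that of CTX 1 (1.30 to 2.44 FPKM). Such intervals cover counting error only.

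Cidec (ENSMUSG00000030278), which encodes the CIDE protein of white fat droplets, stood at 2.29, 1.501 and 0.784 FPKM in Control. The CTX libraries held 0.480, 2.34 and 4.66, and the CTX_HCQ libraries 0.520, 2.53 and 1.09. CTX 3 was again the highest library, and CTX 1 and CTX_HCQ 1 were the lowest. Retn (ENSMUSG00000012705), the resistin gene, stood at 2.31, 1.27 and 0.653 FPKM in Control, at 0.226, 1.27 and 3.35 in CTX, and at 0.267, 1.27 and 2.60 in CTX_HCQ. The 2 lowest Retn libraries, CTX 1 and CTX_HCQ 1, rested on 6 and 7 reads.

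Cfd (ENSMUSG00000061780) encodes adipsin, the factor D of the alternative complement pathway. Its levels were 62.0, 42.9 and 22.5 FPKM in Control, 11.9, 42.9 and 66.5 in CTX, and 15.7, 60.2 and 35.5 in CTX_HCQ. The order of libraries resembled that of Adipoq at a level 5.22 to 22.3 times as high. Lep (ENSMUSG00000059201), the leptin gene, was nearly silent, with 5 reads in all in Control, 16 in CTX and 9 in CTX_HCQ. It had reads in 6 of 9 libraries, and its highest value was 0.182 FPKM in CTX 3. In the 3 libraries without reads, Control 2, CTX 1 and CTX_HCQ 2, a count of 0 allows up to 0.0498, 0.0532 and 0.0512 FPKM (3 reads).

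Plin1 (ENSMUSG00000030546), the perilipin that guards the adipocyte droplet, varied least. It stood at 2.55, 2.66 and 2.34 FPKM in Control, at 0.946, 2.09 and 2.15 in CTX, and at 1.78, 2.31 and 2.72 in CTX_HCQ. Every CTX library lay below every Control library. Fabp4 (ENSMUSG00000062515), a fatty acid binding protein of adipocytes that endothelial cells and macrophages also make, stood at 2.34, 3.34 and 4.93 FPKM in Control. It stood at 1.81, 3.50 and 5.55 in CTX, and at 1.76, 5.77 and 1.61 in CTX_HCQ, with overlap between all groups.

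Plin4 (ENSMUSG00000002831), a perilipin of fat and muscle, was the most abundant member. It held 131 FPKM in Control 1 but 13.5 and 15.5 in Control 2 and Control 3. The CTX libraries held 96.6, 71.1 and 35.2, and the CTX_HCQ libraries 19.8, 66.0 and 29.99. The library with the least Adipoq in CTX, CTX 1, thus had the most Plin4 in that group. On the scale of all tested genes, the mean of Plin4 exceeded that of 94.2% of genes and that of Cfd 91.8%. For Adipoq this share was 41.4%, for Fabp4 31.3%, for Plin1 21%, for Cidec 16.6% and for Retn 12.3%.

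**Figure D1:**
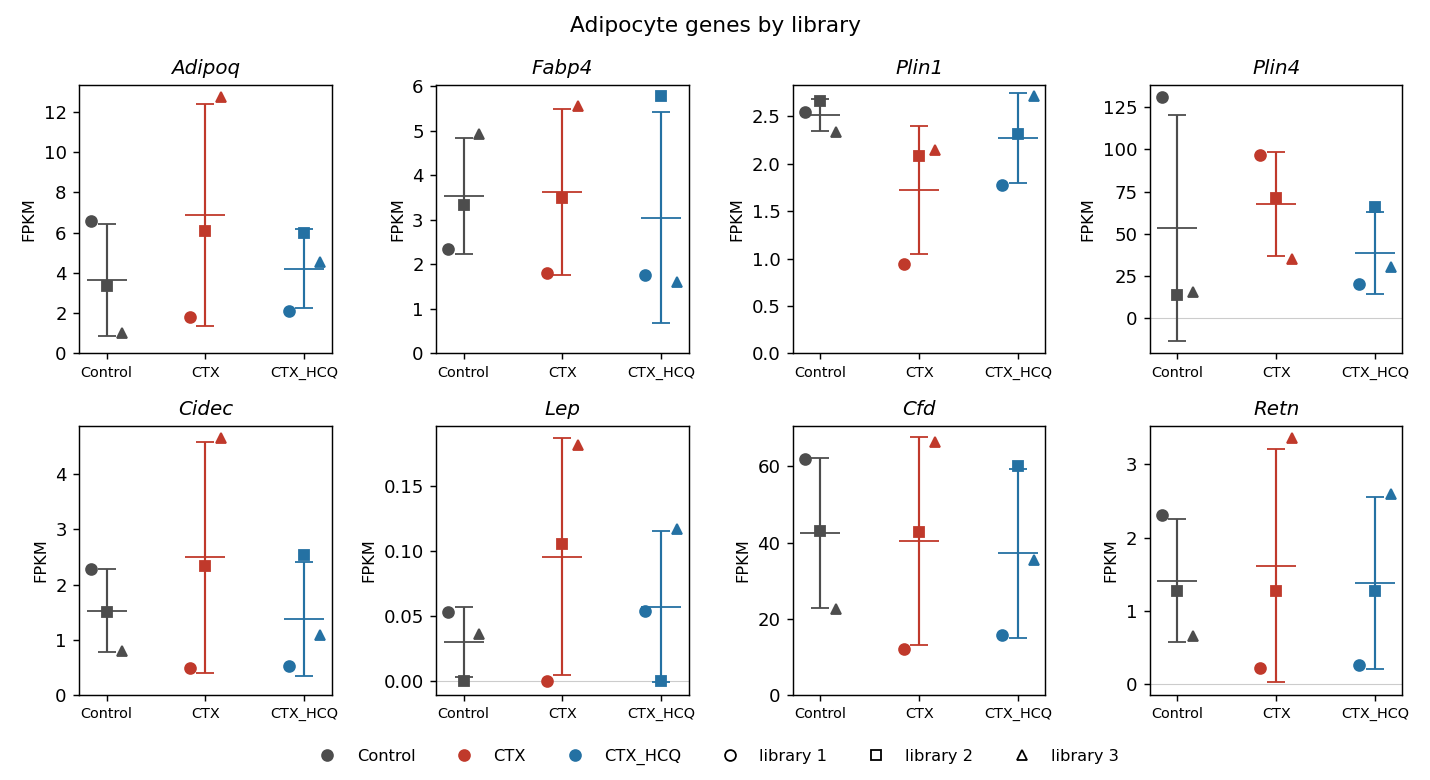
FPKM of the 8 members (vertical axis, 1 scale per gene) in each library of Control, CTX and CTX_HCQ, with marker shapes for the library number, horizontal bars for the group mean and error bars of 1 SD (n = 3). CTX 3 is the highest library for Adipoq, Cidec, Lep, Cfd and Retn, while Control 1 is the highest for Plin4.

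CTX was set against Control to see what cyclophosphamide alone did. None of the 7 tested members passed, beside 0% of all genes tested: limma called 0 of 14431 genes, with 1126 at an unadjusted p under 0.05, and limma voom on recovered reads also called 0, with 1128. Without Control 1 limma called 13 genes and with library weights 648, no member among them. No member reached an unadjusted p of 0.05 in the fit of all libraries, which 7.8% of genes did. Under alternatives some did by limma: Plin4 with library weights (unadjusted p 0.00439) and without Control 1 (0.00345), Plin1 with library weights (0.0211) and Adipoq without CTX 1 (0.0457). Mean Adipoq was 6.88 ± 5.51 FPKM in CTX against 3.64 ± 2.79 for Control (SD, n = 3), a log2 difference of 0.68 (SE 0.60, limma adjusted p 0.724). Fold changes are on the scale of log2(FPKM + 1), which understates the change of genes at low FPKM. The Adipoq difference was 0.14 without CTX 3 and 0.18 without Control 3, but 1.29 without CTX 1 and 1.13 without Control 1. Cidec differed by 0.31 (SE 0.48), Retn by -0.01 (SE 0.50) and Cfd by -0.25 (SE 0.64), each less than its standard error.

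Among the droplet genes in this comparison, Plin4 differed by 1.002 (SE 0.79, limma adjusted p 0.699), with 67.6 ± 30.9 FPKM in CTX and 53.4 ± 67.3 in Control (SD, n = 3). Without Control 1 the Plin4 difference was 2.03 (limma adjusted p 0.216), and with library weights 2.04 (limma adjusted p 0.0602). It was 0.44 without Control 2, 0.53 without Control 3 and 0.69 without CTX 1. Mean Plin1 was 1.73 ± 0.677 FPKM in CTX against 2.51 ± 0.165 for Control (SD, n = 3), a difference of -0.40 (SE 0.22, limma adjusted p 0.653). It was the only member whose groups did not overlap, in a comparison in which 11% of all tested genes were lower and 8.72% higher without overlap, 19.7% in either direction. Without CTX 1 the Plin1 difference was -0.17. Fabp4 differed by -0.02 (SE 0.41). Over the 7 tested members the median difference was -0.01, beside -0.0045 over all genes tested.

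CTX_HCQ was set against CTX to see what hydroxychloroquine added to cyclophosphamide. Again 0 of 7 members were called, beside 0% of 14431 genes, with 785 genes at an unadjusted p under 0.05 by limma. Voom called 0 as well, with 749. Without Control 1 limma called 10 genes, no member among them. No member reached an unadjusted p of 0.05, beside 5.44% of genes, although by limma Plin4 did with library weights (0.0250) and Cidec without CTX 1 (0.0447). Plin4 stood at 38.6 ± 24.3 FPKM in CTX_HCQ (SD, n = 3), a log2 difference from CTX of -0.85 (SE 0.79, limma adjusted p 0.906). Adipoq stood at 4.21 ± 1.97 FPKM (SD, n = 3) and differed by -0.40 (SE 0.60, limma adjusted p 0.932). The Adipoq difference was 0.14 without CTX 3 and -1.001 without CTX 1. The values for Cidec, Fabp4, Retn and Cfd were -0.44, -0.25, -0.08 and -0.01. Plin1 was the only member with a positive difference, 0.29 (SE 0.22), and all 8 members overlapped between these groups, where 3.45% of tested genes were higher and 4.57% lower without overlap, 8.02% in either direction.

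Setting CTX_HCQ against Control compared both drugs with neither. No member passed (0% of 14431 genes by limma, 312 at an unadjusted p under 0.05, and 0 with 288 by voom), and no member reached an unadjusted p of 0.05, beside 2.16% of genes. By limma Fabp4 did with library weights (0.0326) and Plin4 without Control 1 (0.0489). All 8 members overlapped, beside 3.25% of tested genes higher and 3.06% lower without overlap, 6.31% in either direction. Differences ran from -0.27 for Fabp4 to 0.29 for Adipoq, each smaller than its standard error. Mean Plin1 was 2.27 ± 0.473 FPKM in CTX_HCQ against 2.51 ± 0.165 for Control (SD, n = 3). Lep, which lay under the filter, was compared by an exact permutation test, two-sided, for which 3 libraries against 3 cannot go below 0.1. That test gave 0.4 for CTX with Control, 0.7 for CTX_HCQ with CTX and 0.5 for CTX_HCQ with Control.

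**Figure D2:**
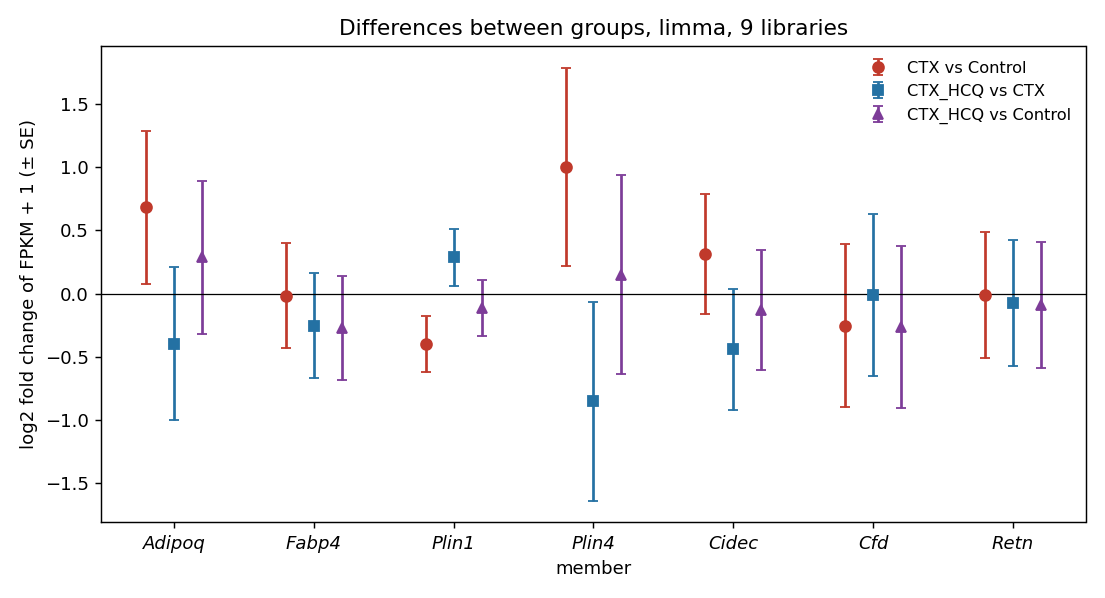
Log2 fold change of FPKM + 1 (vertical axis) with its standard error for the 7 tested members in the 3 comparisons, from 1 limma fit of 9 libraries. The values farthest from 0 are those of Plin4, 1.002 and -0.85.

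Group membership accounted for little of the variation of most members. Of the sum of squares of log2(FPKM + 1) over 9 libraries, 0.409% lay between groups for Retn, 2.27% for Cfd, 5.74% for Fabp4, 9.2% for Cidec, 11.9% for Adipoq and 16.4% for Plin4. It was 20.1% for Lep and highest for Plin1, at 38.3%. The same share was not taken over all tested genes, so these values have no baseline here. In bulk RNA, a larger share of fat cells, more RNA per fat cell and RNA from other cell types cannot be told apart.

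Across libraries, Adipoq, Cidec, Cfd and Retn varied together. Over the 28 pairs of members, 5 passed at a Benjamini-Hochberg adjusted p of 0.05, all among these 4 genes, which were singled out after their values had been seen. Adipoq and Cidec correlated at Pearson's r of 0.926 (exact permutation p 0.000648, adjusted 0.00907) and Spearman's rho of 0.867 (exact permutation p 0.00451, adjusted 0.0421). Cidec and Cfd correlated at r of 0.913 (exact permutation p 0.000344, adjusted 0.00907) and rho of 0.917 (exact permutation p 0.00131, adjusted 0.0367). Adipoq and Cfd correlated at r of 0.850 (exact permutation p 0.00342, adjusted 0.0288) and rho of 0.867 (exact permutation p 0.00451, adjusted 0.0421). CTX 3 was the highest library for all 4 genes, but the order was not the same for each: within CTX_HCQ, library 3 was highest for Retn and library 2 for Adipoq, Cidec and Cfd.

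Retn followed less closely. With Adipoq its r was 0.836 (exact permutation p 0.00605, adjusted 0.0339) and its rho 0.75 (exact permutation p 0.0255, adjusted 0.143). With Cfd its r was 0.856 (exact permutation p 0.00412, adjusted 0.0288) and its rho 0.817 (exact permutation p 0.0108, adjusted 0.0754). With Cidec its r was 0.793 (exact permutation p 0.0127, adjusted 0.0594) and its rho 0.7 (exact permutation p 0.0433, adjusted 0.173).

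These relations were checked without the 2 libraries farthest from the median of the first gene. The r of Adipoq was then 0.943 with Cidec, 0.932 with Cfd and 0.815 with Retn, and that of Cidec with Cfd was 0.941. With Cfd and Retn it was 0.630 (exact permutation p 0.133), so that relation rested in part on CTX 1 and CTX_HCQ 1, and for Cidec with Retn, without CTX 1 and CTX 3, it was 0.569. Values centred on their group mean gave r from 0.821 to 0.979 over the 6 pairs of these 4 genes, and values relative to the summed FPKM of 10 granulosa genes gave 0.768 to 0.907. Rescaled without mitochondrial transcripts, the r of Adipoq with Cidec was 0.924. No batch is named in the labels, and groups of 3 libraries are too small for values within each.

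None of the pairs of Plin4, Plin1, Fabp4 and Lep with these 4 genes or with each other passed after adjustment. The r of Adipoq was 0.389 with Plin4 (rho 0.467, exact permutation p 0.297 and 0.213), 0.359 with Plin1 (rho 0.15, exact permutation p 0.355 and 0.708), 0.332 with Fabp4 (rho 0.317, exact permutation p 0.375 and 0.41) and 0.621 with Lep (rho 0.525, exact permutation p 0.0758 and 0.154). The smallest adjusted p over the 22 pairs outside the group of 4 was 0.081, for Plin1 with Cfd. That pair had r of 0.716, and Plin1 with Retn 0.663. Centred on group means, Plin1 had r of 0.772 with Adipoq, 0.792 with Cidec, 0.839 with Cfd and 0.852 with Retn. These values reach into the range of the 4 genes themselves. Not centred and without CTX 1 and CTX_HCQ 1, the r of Plin1 was -0.574 with Cidec, -0.187 with Cfd and 0.106 with Retn. With Adipoq it was 0.704 without Control 3 and CTX 3. Fabp4 with Cidec had rho of 0.7, the same as Cidec with Retn. Ratios to Adipoq were also taken within each library. Cidec was 0.24 to 0.776 times Adipoq, a 3.23-fold span, and Cfd over Adipoq spanned 4.27-fold and Retn over Adipoq 5.17-fold. Fabp4 over Adipoq spanned 13.7-fold, Plin1 over Adipoq 13.7-fold, and Plin4 over Adipoq 19.35-fold, from 2.76 in CTX 3 to 53.4 in CTX 1.

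**Figure D3:**
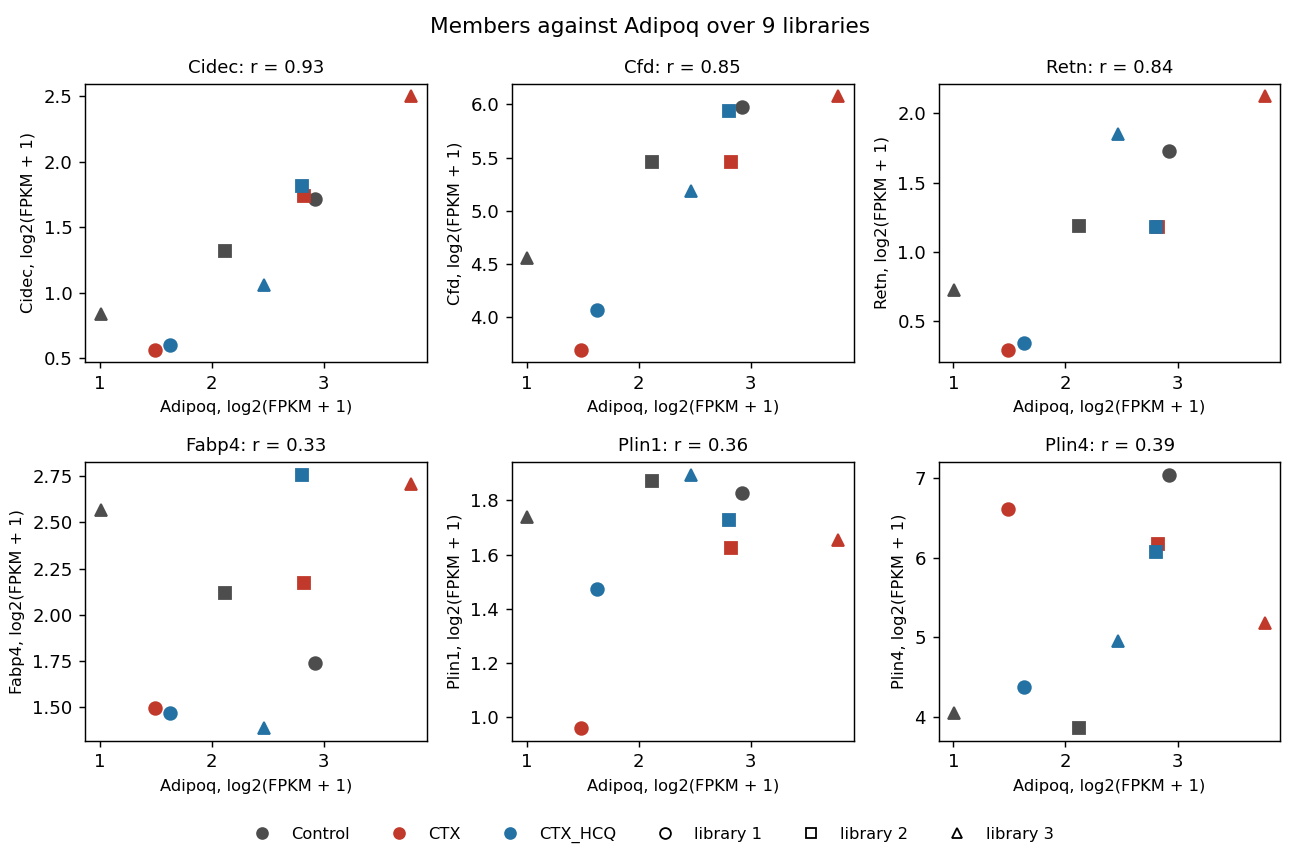
Levels of 6 members (vertical axes) against Adipoq (horizontal axis), both as log2(FPKM + 1), with 1 point per library coloured by group. Cidec, Cfd and Retn rise along Adipoq with r of 0.926, 0.850 and 0.836, while Fabp4, Plin1 and Plin4 scatter, with r from 0.332 to 0.389.

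**Figure D4:**
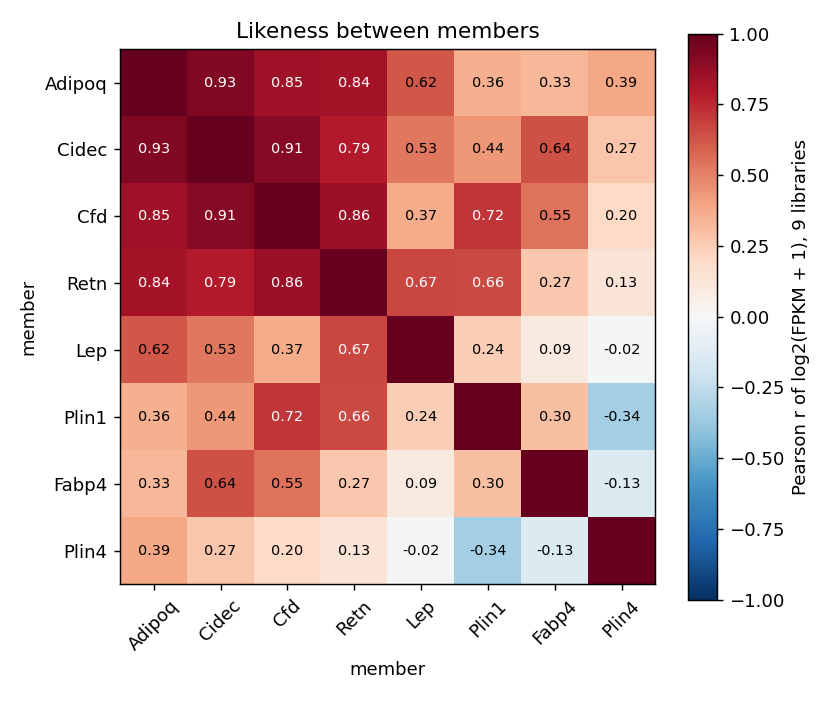
Pearson's r of log2(FPKM + 1) over 9 libraries for each pair of members (both axes list the members, and colour and number give r). The block of Adipoq, Cidec, Cfd and Retn holds r from 0.793 to 0.926, and the other 22 pairs lie between -0.340 and 0.716.

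Cell type markers were set beside these patterns. The levels of Adipoq and Plin4 were compared over the 9 libraries with 135 tested genes of 24 other lists. These lists cover fat metabolism and the cell types of the ovary and its surroundings. The other members were not tested against the lists. For Adipoq none of the 135 passed after adjustment. Car3, a carbonic anhydrase abundant in white fat, came closest with r of 0.890 (exact permutation p 0.00152, adjusted 0.205) and rho of 0.9 (exact permutation p 0.00203, adjusted 0.274), and without Control 3 and CTX 3 its r was 0.961. Car3 stood at 8.02, 4.26 and 3.22 FPKM in Control, 1.45, 5.46 and 11.03 in CTX, and 2.13, 6.51 and 5.96 in CTX_HCQ, highest where Adipoq was highest. Other listed genes of mature fat and lipid synthesis ran either way with Adipoq, none passing: r was 0.687 for Ces1d, 0.725 for Ces1f, -0.205 for Lipe, -0.607 for Mrap, -0.612 for Me1 and -0.733 for Acly (rho 0.75, 0.617, -0.483, -0.683, -0.783 and -0.6, with exact permutation adjusted p from 0.421 to 0.785). Smooth muscle genes also ran with Adipoq without passing. The r was 0.803 for Mylk and 0.724 for Myh11 (rho 0.817 and 0.783, exact permutation adjusted p 0.421 for r and 0.465 for rho in both). For Ovgp1 the r with Adipoq was 0.640 (rho 0.617, exact permutation p 0.0652 and 0.0857). It was 0.0566 without Control 3 and CTX 3, so this relation rested on those libraries.

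For Plin4, 7 of the 135 list genes passed by Pearson's r, of which 6 were positively related. These 6 were the endothelial genes Cdh5, Tek, Pecam1 and Tie1, the pericyte gene Rgs5 and Ptgfr, the prostaglandin F receptor of luteal cells. By rank 5 of the 7 passed as well. Tie1 and Rgs5 did not, each with rho of 0.867 (exact permutation p 0.00451, adjusted 0.0676). The other tested genes of the same lists did not pass by either measure. Their r with Plin4 ran from 0.424 (Plvap) to 0.898 (Emcn) in the endothelial list. It ran from -0.300 (Akr1c18) to 0.801 (Hsd3b1) in the theca and luteal list, and from 0.026 (Mylk) to 0.825 (Acta2) in the smooth muscle list. Cdh5, the cadherin of blood vessel junctions, had r of 0.969 (exact permutation p 0.000102, adjusted 0.00688) and rho of 0.967 (exact permutation p 0.000165, adjusted 0.0112) with Plin4. Ptgfr had r of 0.944 (exact permutation p 0.000524, adjusted 0.0141) and rho of 0.95 (exact permutation p 0.000353, adjusted 0.0159). Without Control 1 and CTX 1, the libraries with the most Plin4, these r were 0.958 and 0.938. Mlxipl, a carbohydrate-responsive transcription factor, ran opposite to Plin4 with r of -0.982 (exact permutation p 3.03e-05, adjusted 0.00409) and rho of -0.967 (exact permutation p 0.000165, adjusted 0.0112).

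Ptgfr stood at 71.7, 8.86 and 7.71 FPKM in Control, 118.7, 64.8 and 15.6 in CTX, and 12.0, 40.3 and 29.8 in CTX_HCQ. Like Plin4 it was low in Control 2, Control 3 and CTX_HCQ 1 and high in Control 1 and CTX 1. The summed FPKM of the 11 endothelial markers ran from 39.7 to 98.1 in Control, from 66.4 to 123.6 in CTX and from 49.0 to 128 in CTX_HCQ, and no endothelial marker was at 0 in all libraries. What part these cells have in the Plin4 level was not tested.

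By overall pattern, the 10 genes outside the members that most resembled their mean over 9 libraries, of 12210 compared, were Car3 (r = 0.940), Zfp57 (0.932), Jag2 (0.923), Ppib (0.920), Cyp2e1 (0.913), Zbed3 (0.894), Rgma (0.894), Zp1 (0.887), Tmem171 (0.884) and Tle6 (0.883). These r are descriptions of genes picked for their likeness, and all 9 points of a gene share the scaling of their library. Zp1, a protein of the egg coat, and Tle6, a maternal protein of the egg, are known from oocytes.

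RNA levels of the perilipin family were set side by side, while perilipin protein on droplets was not measured. Plin2, the perilipin of most cells with droplets, stood between 13.4 and 25.05 FPKM, Plin3, found widely, between 15.5 and 27.4, and Plin5, the perilipin of oxidative tissues, between 2.97 and 37.3. The highest library for Plin5 was CTX_HCQ 1, where Plin4 stood at 19.8 FPKM. Plin1 at 0.946 to 2.72 FPKM was the lowest of the 5 perilipins in each of the 9 libraries, by the narrowest margin in CTX_HCQ 3, where Plin5 stood at 2.97 and Plin1 at 2.72.

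For the fatty acid binding proteins, Fabp3 (29.6 to 45.2 FPKM) and Fabp5 (9.34 to 36.6) both exceeded Fabp4 in every library. Fabp5 was highest in CTX 3, the library with most Adipoq, and its r with Adipoq was 0.831 (rho 0.833, exact permutation p 0.0063 and 0.00827, adjusted 0.421 and 0.465). The other 6 members of that family stayed under 1 FPKM everywhere. Cidea, the CIDE gene of brown fat, stood at 0.04998 to 1.53 FPKM, and Cideb at 0.187 or less. Retnla, a resistin-like gene of macrophages and fat, stood at 0.6 to 8.73 FPKM and was highest in CTX 1, where Retn was lowest.

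**Figure D5:**
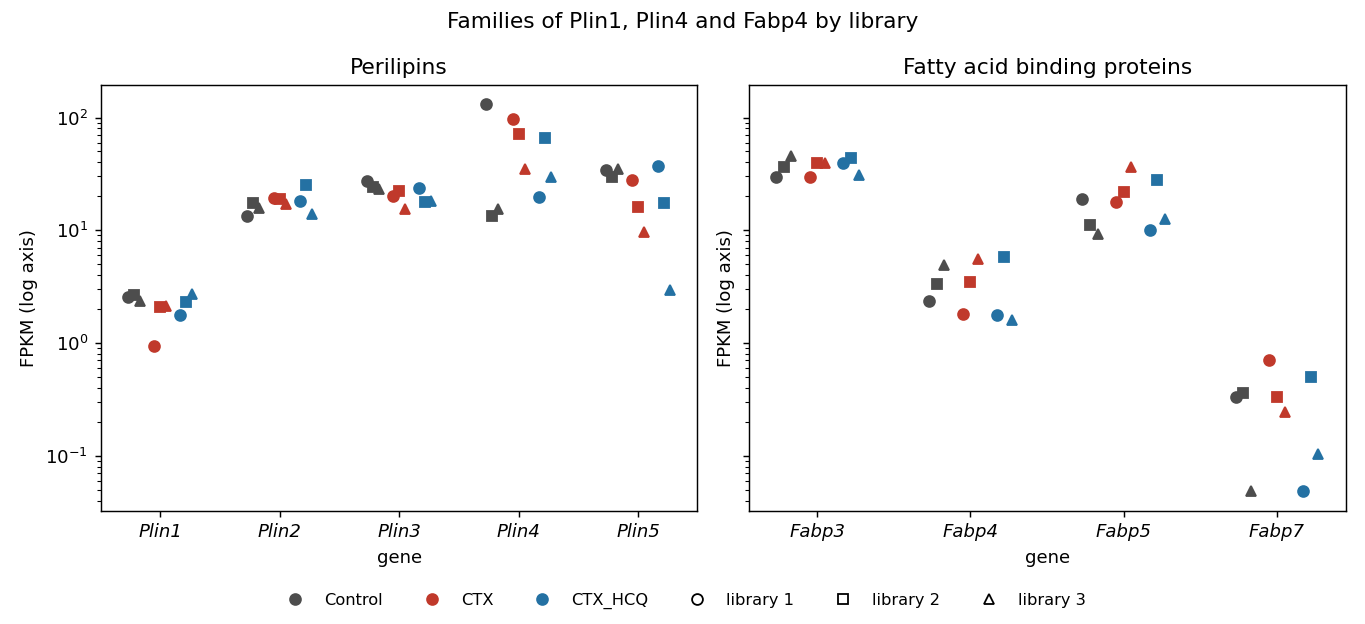
FPKM on a log axis of the 5 perilipins and of 4 fatty acid binding proteins by library, coloured by group with marker shapes for the library number. Plin1 lies below the other perilipins in every library, and Plin4 spans 13.5 to 131 FPKM. Fabp4 lies below Fabp3 and Fabp5 but above Fabp7.

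Other genes of mature fat varied in level and in their relation to Adipoq. In a list of 16 such genes found in the table, 8 passed the filter, and 4 stayed under 1 FPKM in all libraries. The highest were Mrap, the accessory protein of melanocortin receptors (17.8 to 167 FPKM, most in Control 3 and least in CTX_HCQ 3), Ces1d (1.72 to 15.3), the lipase gene Lipe (3.32 to 9.61) and Car3 (1.45 to 11.03). Adrb3, the adrenergic receptor of fat, reached 1.06 FPKM at most, and Slc2a4, the insulin-regulated glucose transporter, 0.770. Ucp1, which defines brown fat, was at 0 in all 9 libraries, and 5 of 8 brown fat genes stayed under 1 FPKM throughout.

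Of 12 factors that drive fat cell differentiation, 10 passed the filter, while Ebf1 reached 0.492 FPKM at most and Ebf2 0.0175. Among the 4 most abundant, Pparg stood at 10.4 to 28.6 FPKM, Cebpb at 38.4 to 157, Cebpa at 18.8 to 57.6 and Srebf1 at 20.1 to 33.3. Pparg had r of 0.503 with Adipoq (rho 0.433, exact permutation p 0.168 and 0.249). Among receptors for the hormones, Adipor1 stood at 23.8 to 36.25 FPKM, Adipor2 at 22.9 to 43.3, the resistin receptor candidate Cap1 at 41.4 to 61.6 and the leptin receptor Lepr at 0.492 to 1.23. In the alternative complement pathway, C3 stood at 22.3 to 156 FPKM. Cfb, the substrate that adipsin cleaves, reached 0.146 at most.

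The most abundant gene of each of 4 lists of lipid metabolism is given here. Gpam, the first enzyme of glycerolipid synthesis, led the triglyceride synthesis list and stood at 55.7 to 182 FPKM, Scd2, a desaturase, at 324 to 887.5, Prkar2b, a regulatory subunit of protein kinase A, at 167 to 346, and the fatty acid carrier Slc27a1 at 28.7 to 61.7. Levels within a list ranged widely: in triglyceride synthesis, Lpin1 averaged 3.12 FPKM, Gpd1 1.86, Pck1 0.458 and Mogat1 0.0219. Of the 135 tested genes of all 24 lists, 0 were called in each of the 3 comparisons by limma. At an unadjusted p under 0.05, 12 were higher and 10 lower in CTX than in Control, 2 higher and 15 lower in CTX_HCQ than in CTX, and 1 higher and 3 lower in CTX_HCQ than in Control. The shares over all genes were 7.8%, 5.44% and 2.16%. The oviduct list supplied 7 of these genes in each of the first pair of comparisons and 0 in the last.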

How the data were processed

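RNA-seq was measured in 9 libraries, 3 per group. The authors deposited 1 table of FPKM per gene, that is fragments scaled to exon length and to the mapped fragments of the library. The submitters' processing notes name fastp 0.23.2, HISAT2 2.0.5, featureCounts 1.5.0-p3, DESeq2 1.20.0 and the build GRCm39 (mm39). The sources used here do not say whether counting used strand. Symbols came from gene name tables.

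Groups were compared with limma 3.58.1 in R 4.3.3 on log2(FPKM + 1), in 1 fit of all 9 libraries with a variance trend, for genes with FPKM of at least 1 in at least 3 libraries. P-values were adjusted by Benjamini-Hochberg over all 14431 tested genes with a threshold of 0.05. Pairs of members were tested by exact permutation in Python 3.11.15. Dividing out exon lengths of GENCODE M21 gave whole reads, within 0.02 of a read, for 13573 of 14431 tested genes. For 843 more a length was searched until it gave whole reads, which brought the share to 99.9%. Whole reads are no check of a searched length. The exon length of Plin4 was searched rather than annotated. The code was tested on simulated data. Alternatives were another pseudocount, other filters and scalings, library weights, voom on recovered reads, a replicate block and leaving out libraries. Leaving out CTX 3 and CTX_HCQ 3 together, group-centred correlations and levels relative to granulosa genes were chosen after seeing the data. Correlations between members were planned as description without a test. Their permutation tests, and those of list genes with Adipoq and Plin4, were added to that plan. Genes outside the members were named as the 10 most like the members' mean, as up to 4 with the highest mean of each list, and as checks of the tissue (Amh, Fshr, Foxl2, Ovgp1). Ucp1, Adrb3, Slc2a4, Cfb, Lepr, Ebf1, Ebf2, Lpin1, Gpd1, Pck1, Mogat1 and the list genes related to Adipoq or Plin4 were named after their values were seen. Members and lists were chosen with earlier results of these data known.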

Additional observations from a re-analysis of the deposited data

How the results depend on the processing

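None of 384 values of the 21 member comparisons passed the threshold under an alternative, 349 kept their direction and 35 changed sign, 25 of them when 1 library was left out. Causes were not tested. With library weights, limma called 648 genes (337 higher, 311 lower) in CTX against Control, and 1 in each of the other comparisons, with 3935, 2832 and 905 at an unadjusted p under 0.05. Leaving out 1 library gave 0 to 13 calls in CTX against Control and 0 to 10 in CTX_HCQ against CTX, the highest in both without Control 1, and 0 in CTX_HCQ against Control. Unadjusted counts then ran from 424 to 1693, 483 to 2440 and 157 to 1079. They were 1906, 1713 and 926 with no filter, 580, 370 and 146 at a mean FPKM of at least 5, 2067 in CTX against Control with only those groups, and 560 in CTX_HCQ against Control without CTX 3 and CTX_HCQ 3.

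Rescaling without mitochondrial genes shifted the median of all genes to 0.11 in CTX_HCQ against CTX, where Cfd was then 0.10. Cfd was 0.0237 with quantile normalization and 0.0508 with voom, and Fabp4 in CTX against Control was 0.0045 with quantile normalization. Without CTX 3 and CTX_HCQ 3, Cidec was -0.14 in CTX against Control, and in CTX_HCQ against CTX Adipoq was 0.0620, Fabp4 0.28, Cidec 0.0574, Cfd 0.43 and Retn 0.0246. Over the left-out libraries, CTX against Control ran from 0.14 to 1.29 for Adipoq, 0.44 to 2.03 for Plin4, -0.31 to 0.30 for Fabp4, -0.14 to 0.83 for Cidec, -0.76 to 0.44 for Cfd and -0.48 to 0.44 for Retn. CTX_HCQ against CTX ran from -1.001 to 0.14 for Adipoq, -0.70 to 0.0388 for Fabp4, -0.96 to 0.0078 for Cidec, -0.70 to 0.49 for Cfd and -0.53 to 0.39 for Retn. CTX_HCQ against Control ran from -0.22 to 0.74 for Adipoq, -0.41 to 1.18 for Plin4, -0.46 to 0.15 for Cidec, -0.70 to 0.23 for Cfd and -0.45 to 0.30 for Retn.

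The summed FPKM of the 8 members was 108.51 in Control, 124 in CTX and 88.1 in CTX_HCQ. Leaving out 1 library gave 58.2 to 139, 122 to 129.85 and 60.1 to 111. Without Plin4 the sums were 55.1, 56.9 and 49.5, and for Adipoq, Plin1, Cidec, Lep and Retn alone the sums were 9.12, 12.8 and 9.29. By rank, Adipoq with Retn (0.75, exact permutation adjusted p 0.143) and Cfd with Retn (0.817, exact permutation adjusted p 0.0754) did not pass. Centring on group means gave r of 0.772 for Adipoq with Plin1, 0.960 for Adipoq with Cfd, 0.792 for Plin1 with Cidec, 0.739 for Plin1 with Lep, 0.852 for Plin1 with Retn and 0.979 for Cidec with Cfd. Without the highest and the lowest library r was -0.363 for Fabp4 with Lep, -0.212 for Fabp4 with Retn and 0.175 for Cidec with Lep.

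Deviations of same-numbered libraries correlated at -0.457 to 0.135, so the replicate numbers were not taken as pairing. With the replicate block limma called 0 genes in each comparison, with 847, 668 and 293 at an unadjusted p under 0.05. Reads limit Lep (30 in all) and Retn (6 in CTX 1) most.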
